A study of Mus musculus with 4 samples.

Results

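The transcript levels of 10 endothelial lineage transcription factors were read out in the long-bone endothelium of *Lats2* iΔEC mutant mice: the ETS factors *Erg*, *Fli1* and *Ets1*, the SOXF factors *Sox7*, *Sox17* and *Sox18*, the Krüppel-like factors *Klf2* and *Klf4*, and *Gata2* and *Tal1*. They are 10 of the 53703 features of the count matrices, and all 10 were found by gene symbol. Mutants carried *Lats2* lox/lox alleles and the tamoxifen-inducible *Cdh5(PAC)-CreERT2* transgene, in which the promoter of *Cdh5* (VE-cadherin) drives the recombinase in endothelial cells (ECs). Controls were Cre-negative littermates that also received tamoxifen, per the methods of the study, although the labels call their treatment untreated, and a *Cdh5(PAC)-mT/nG* reporter was bred into the background. All mice were 12 weeks old, on a C57BL/6 background and of both sexes, and each genotype is represented by 2 droplet-based scRNA-seq libraries of the metaphysis of femur and tibia, depleted of hematopoietic cells. Whether a library held 1 animal or several is not given in the sources used here, so the p-values need not measure the spread between animals. In genotype tests of 1 class the libraries are the replicates, with spread estimated jointly over genes. Where the library is a block, the spread is that left within libraries.

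ETS factors such as ERG and FLI1 bind GGAA motifs in most endothelial promoters and enhancers and keep up endothelial identity, vessel integrity and low inflammatory activity, while ETS1 is linked to angiogenic growth. The SOXF factors SOX7, SOX17 and SOX18 act in arterial and lymphatic specification, with SOX17 known as an arterial factor. KLF2 and KLF4 are induced by laminar shear stress through the MEKK-MEK5-ERK5 cascade and mark quiescent, anti-inflammatory endothelium, but they are also immediate early genes in many other cell types. GATA2 and TAL1 act in endothelium and in hematopoietic stem and progenitor cells, where they share a complex with LMO2 and LDB1.

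The 4 libraries held 69636600 and 78953446 unique molecular identifiers (UMIs) in mutants and 83453507 and 85899079 in controls. A barcode counted as an EC with at least 1000 UMIs, 800 genes and 5 of 10 endothelial markers, and with at most 2 markers of any other lineage, which gave 504 and 602 mutant and 789 and 765 control ECs. ECs were split by marker scores into arterial (164 and 197 in mutants, 209 and 193 in controls), sinusoidal (68 and 64, 203 and 208), capillary (127 and 148, 294 and 285) and *Apln*-positive ECs (at least 2 *Apln* UMIs; 93 and 128, 29 and 24). All 10 endothelial markers were at 10 CPM or more in every EC class (CPM, UMIs of a gene per 1000000 UMIs of a class in a library). Their summed level in all ECs was 8790.2 and 8855 CPM in the mutants and 10332 and 10102 CPM in the controls, in *Apln*-positive ECs it was 7891 and 8266 CPM in the mutants and 10615 and 11201 CPM in the controls, and both mutants lay below both controls in the other 3 subtypes too. The summed level of smooth muscle markers in all ECs was 189 and 190.1 CPM in mutants and 463 and 477 CPM in controls, that of osteoblast markers 72.5 and 67.0 against 155 and 330.2 CPM, and that of leukocyte markers at most 2.65 CPM. A stricter limit on markers of other lineages and a subtraction of free RNA are given with the results below. Counts of *Lats2* in ECs were 92.8 and 94.6 CPM in mutants and 135 and 126 CPM in controls (log2 fold change −0.41, adjusted p = 0.000303, edgeR with Benjamini-Hochberg adjustment), but the counts cover the whole gene and the deleted exons are not given, so this is no check of the deletion.

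Gene positions are given for GRCm39 (GENCODE M39), where *Fli1* (chr9:32333500-32454157) and *Ets1* (chr9:32547517-32669116) lie close together on chromosome 9. *Klf2* (chr8:73072726-73075502) and *Klf4* (chr4:55527139-55532528) both rose in mutant ECs, while within the SOXF family *Sox7* (chr14:64181006-64188352) rose and *Sox18* (chr2:181311629-181313438) fell, so the 250 bases before the outermost annotated start of these 4 genes are shown, on the coding strand of GRCm39. Capitals mark the ETS core GGAA or TTCC and the KLF core CACCC or GGGTG, searched on both strands.
*Klf2*, chr8:73072476-73072725, plus strand: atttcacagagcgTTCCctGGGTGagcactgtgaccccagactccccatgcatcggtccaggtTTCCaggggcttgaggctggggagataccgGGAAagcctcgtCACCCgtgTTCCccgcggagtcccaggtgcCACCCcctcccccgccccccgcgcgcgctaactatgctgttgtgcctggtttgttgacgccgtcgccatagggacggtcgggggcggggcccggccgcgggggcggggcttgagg
*Klf4*, chr4:55532529-55532778, minus strand: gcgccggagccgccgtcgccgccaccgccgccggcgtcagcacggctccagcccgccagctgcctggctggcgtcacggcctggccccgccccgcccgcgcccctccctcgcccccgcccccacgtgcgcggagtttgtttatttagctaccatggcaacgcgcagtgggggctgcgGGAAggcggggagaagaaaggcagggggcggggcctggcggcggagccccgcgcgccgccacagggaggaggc
*Sox7*, chr14:64180756-64181005, plus strand: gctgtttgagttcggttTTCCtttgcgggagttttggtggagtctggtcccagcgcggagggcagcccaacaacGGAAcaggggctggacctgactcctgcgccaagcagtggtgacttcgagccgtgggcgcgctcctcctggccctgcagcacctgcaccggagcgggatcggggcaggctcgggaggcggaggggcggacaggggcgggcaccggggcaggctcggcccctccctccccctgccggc
*Sox18*, chr2:181313439-181313688, minus strand: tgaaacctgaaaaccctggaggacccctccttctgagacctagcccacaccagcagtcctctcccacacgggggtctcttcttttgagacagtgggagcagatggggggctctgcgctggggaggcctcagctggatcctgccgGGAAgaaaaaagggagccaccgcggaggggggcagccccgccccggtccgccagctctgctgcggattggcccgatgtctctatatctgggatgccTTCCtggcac
The ETS core is found 4 times before *Klf2*, 1 time before *Klf4* and 2 times each before *Sox7* and *Sox18*, but 94.2% of 21751 promoters of protein-coding genes of the same length hold it. The KLF core occurs 3 times before *Klf2* and is held by 51.3% of promoters. None of the 4 windows holds the TEAD motif GGAATG, which 12.4% of promoters hold, a CArG box (1.41%), a MEF2 box (3.08%) or the AP-1 motif TGANTCA (6.46%). Among the windows not shown, GGAATG is found 2 times before *Sox17* and 1 time before *Tal1*. Base content differs between the windows, with 68.8% G and C before *Klf2*, 78.0% before *Klf4*, 70.8% before *Sox7* and 63.6% before *Sox18*. A match of letters is a description of the sequence and not a binding site.

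How the factors are distributed over the EC subtypes was first asked in the controls. Of the 10 factors, 7 differed between the 4 subtypes (*Ets1*, *Sox7*, *Sox17*, *Sox18*, *Klf2*, *Klf4* and *Gata2*), where 38.7% of 7920 genes did so, in an edgeR fit of all 16 sums with the library as a block and Benjamini-Hochberg adjustment over all genes. *Erg*, *Fli1* and *Tal1* did not (adjusted p = 0.135, 0.0756 and 0.939). In the following, a log2 difference sets a subtype against the mean of the other 3 subtypes in controls.

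**Figure D1:**
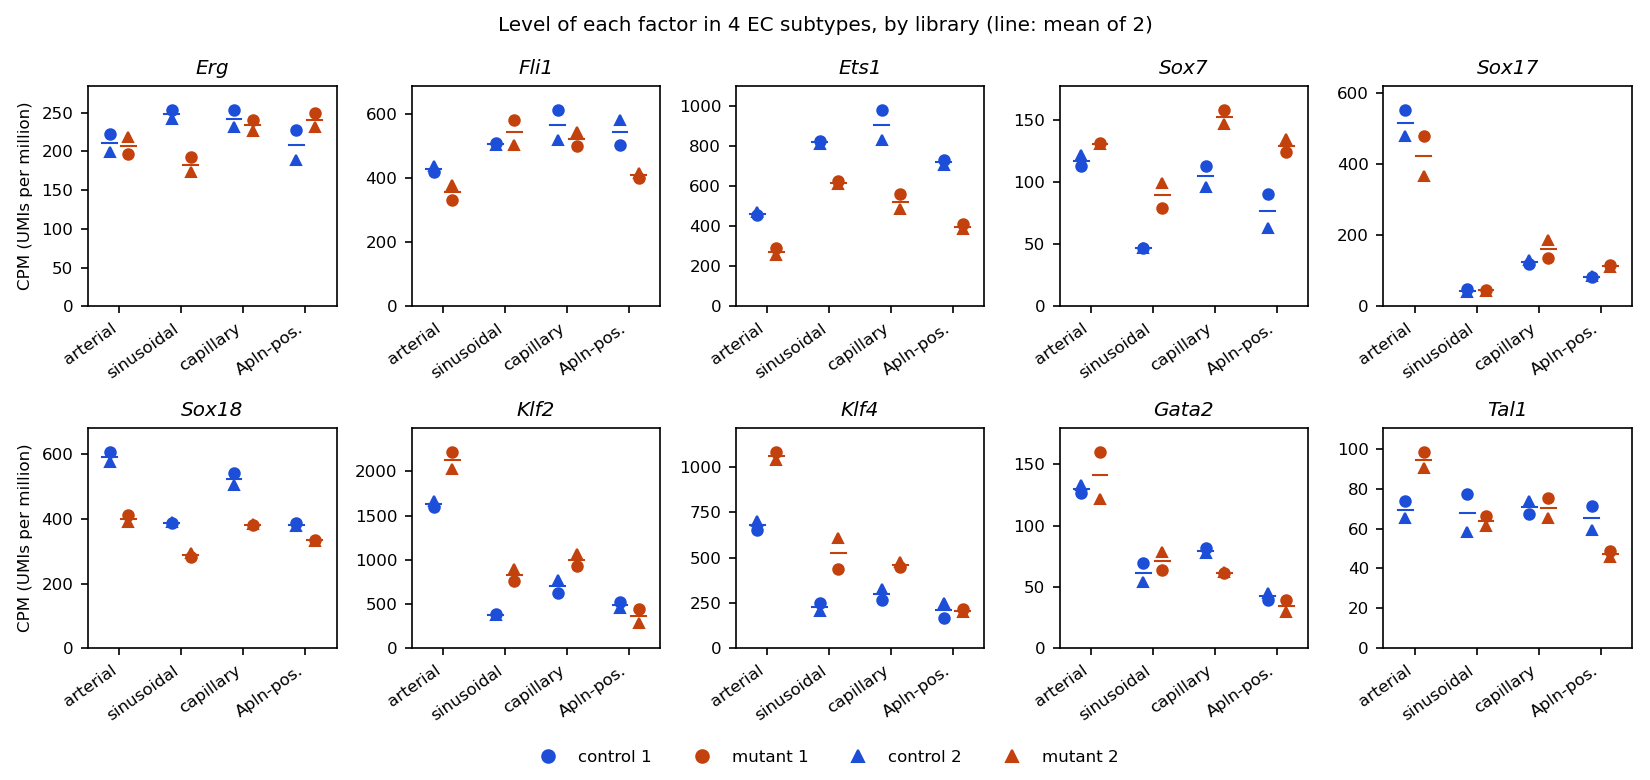
Level of each factor (CPM, linear axis from 0) in arterial, sinusoidal, capillary and *Apln*-positive ECs, with 1 point per library and a line at the mean of 2 libraries. *Sox17*, *Klf2* and *Klf4* are highest in arterial ECs of both genotypes, and the mutant points of *Ets1* lie below the control points in all 4 subtypes.

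Arterial ECs held the highest levels of *Sox17*, the SOXF factor of arteries, with 553 and 477 CPM in the 2 controls. Its level was 118 and 129.6 CPM in capillary, 81.2 and 83.9 CPM in *Apln*-positive and 47.3 and 39.5 CPM in sinusoidal ECs. The control libraries of these 4 subtypes did not overlap, and the log2 difference of arterial ECs was 2.81 (adjusted p = 3.25e-12) and that of sinusoidal ECs −1.95 (adjusted p = 8.22e-08). *Sox7* stood at 113 and 122 CPM in arterial and 114 and 95.9 CPM in capillary ECs, which overlapped, and at 47.3 and 47.1 CPM in sinusoidal ECs, a log2 difference of −1.01 (adjusted p = 2.73e-05). *Sox18* varied least of the 3, from 607 and 574 CPM in arterial to 387 and 378 CPM in *Apln*-positive ECs, where it did not lie apart from sinusoidal ECs (386 and 389.7 CPM). Sinusoidal ECs thus had the lowest *Sox7* and *Sox17* of the 4 subtypes, while *Sox18* did not separate them from *Apln*-positive ECs.

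*Klf2* and *Klf4*, the shear-responsive factors, followed the same order of arterial over capillary ECs. In arterial ECs *Klf2* reached 1602 and 1671 CPM, a log2 difference of 1.74 (adjusted p = 2.75e-10), and in sinusoidal ECs 385 and 377 CPM, a log2 difference of −1.07 (adjusted p = 2.54e-06). *Klf4* stood at 654 and 704 CPM in arterial ECs, a log2 difference of 1.55 (adjusted p = 1.98e-09), and its levels in sinusoidal (248 and 205 CPM) and *Apln*-positive ECs (169 and 248 CPM) overlapped. *Gata2* had the same leading subtype, with 126 and 133 CPM in arterial and 39.0 and 45.5 CPM in *Apln*-positive ECs, log2 differences of 1.18 (adjusted p = 3.00e-06) and −1.10 (adjusted p = 0.0132).

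*Ets1* had the reverse pattern. It was lowest in arterial ECs (454 and 468 CPM, log2 difference −0.76, adjusted p = 3.22e-07) and higher in *Apln*-positive (731 and 706 CPM), sinusoidal (824 and 811 CPM) and capillary ECs (981 and 831 CPM), with no overlap between neighbours in this order. Levels of *Erg* lay between 189 and 254 CPM over all 8 control values. *Fli1* was lower in arterial ECs (419 and 438 CPM, log2 difference −0.28, adjusted p = 0.0272) although the test over all 4 subtypes did not pass, and neighbours among its other 3 subtypes overlapped. *Tal1* lay between 58.1 and 77.5 CPM, with every pair of neighbouring subtypes overlapping.

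Mutants were then compared with controls in all ECs. Of the 10 factors, *Klf4*, *Sox7* and *Klf2* rose, *Ets1*, *Sox18* and *Fli1* fell, and *Sox17*, *Gata2*, *Tal1* and *Erg* did not pass the test (edgeR quasi-likelihood test on library sums, Benjamini-Hochberg adjusted p of 0.05 or less over 5657 genes). The share of 6 of 10 is close to the background, since 60.9% of all genes tested passed (30.8% higher and 30.1% lower). All 10 factors passed the filter on low counts in every EC class. The changes by subtype numbered 3 higher and 2 lower in arterial ECs (27.8% of genes called, 14.1% higher and 13.6% lower) and 3 higher and 1 lower in sinusoidal ECs (20.1% of genes called, 11.2% higher and 8.88% lower). They numbered 4 higher and 2 lower in capillary ECs (31.6% of genes called, 15.5% higher and 16.1% lower) and 1 higher and 1 lower in *Apln*-positive ECs (14% of genes called, 6.71% higher and 7.33% lower). All of these comparisons rest on the same 2 mutant and 2 control libraries.

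**Figure D2:**
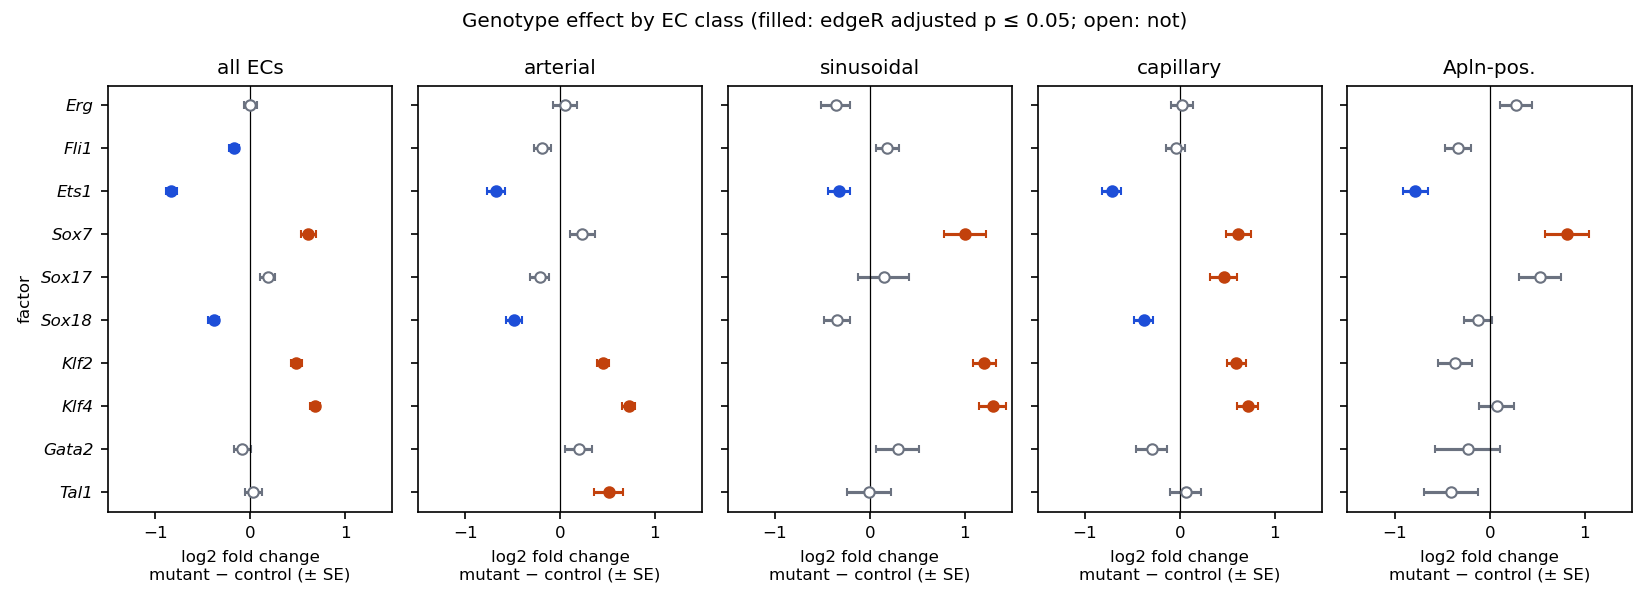
Log2 fold change of mutants over controls (horizontal axis, bars ± SE) of each factor (vertical axis) in all ECs and in the 4 subtypes, filled where the adjusted p is 0.05 or less. *Ets1* lies left of 0 in every panel, and *Klf2* and *Klf4* lie right of 0 and are filled in all panels but that of *Apln*-positive ECs, where both are open, with *Klf2* at −0.36 and *Klf4* at 0.075.

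Among the ETS factors, *Ets1* changed most. Its level in all ECs was 419 and 384 CPM in the mutants and 784 and 720.2 CPM in the controls. It was 1.78-fold lower in mutants, with a log2 fold change of −0.83 (SE 0.059, adjusted p = 9.26e-10) in edgeR with Benjamini-Hochberg adjustment, as for every adjusted p given here. The mean of the 4 subtype effects on *Ets1*, which does not depend on the share of each subtype, was −0.63 (adjusted p = 1.34e-09 in limma). Both mutants lay below both controls in all 4 subtypes. The summed endothelial markers given above were lower in the mutants as well, and their part in the falls of *Ets1*, *Sox18* and *Fli1* was not tested. In arterial ECs *Ets1* stood at 290.2 and 256 CPM in the mutants and 454 and 468 CPM in the controls, a log2 fold change of −0.68 (SE 0.0967, adjusted p = 3.14e-06). Capillary ECs held 558 and 487 CPM in the mutants and 981 and 831 CPM in the controls, with −0.72 (SE 0.0986, adjusted p = 4.05e-07). The *Apln*-positive ECs, with 410.1 and 384 CPM in the mutants and 731 and 706 CPM in the controls, gave −0.78 (SE 0.134, adjusted p = 0.000268). The fall was smallest in sinusoidal ECs, where the levels were 623 and 608 CPM in the mutants and 824 and 811 CPM in the controls and the log2 fold change −0.33 (SE 0.117, adjusted p = 0.0387). This last call did not hold with mutant 2, control 1 or control 2 left out (adjusted p = 0.0695, 0.264 and 0.172). With at most 1 marker of another lineage it did not pass either, at a larger size (−0.55, adjusted p = 0.0938), nor in DESeq2 (0.145) or with the low-count filter alone (0.0617). Whether the effect on *Ets1* differed between subtypes did not pass the test (adjusted p = 0.199).

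*Erg*, an ETS factor closely tied to endothelial identity, stood at 223 and 224 CPM in the mutants and 243 and 227 CPM in the controls. In CPM both mutants thus lay just below both controls, but the log2 fold change, after scaling for the composition of the libraries, was 0.0002 (SE 0.0672, adjusted p = 0.998), with a 95% interval of −0.14 to 0.14. It passed in none of the 4 subtypes, where its log2 fold change lay between −0.36 in sinusoidal ECs and 0.28 in *Apln*-positive ECs. Sinusoidal ECs had 192 and 173 CPM in the mutants and 254 and 242 CPM in the controls (adjusted p = 0.0951, 95% interval −0.67 to −0.050). *Apln*-positive ECs had 250 and 232 CPM in the mutants and 227 and 189 CPM in the controls (adjusted p = 0.306). Under other processing settings with all libraries kept, the log2 fold change ranged from −0.47 to 0.046 in sinusoidal and from 0.23 to 0.92 in *Apln*-positive ECs, and neither passed. *Fli1* was at 423 and 447 CPM in the mutants and 532 and 499.6 CPM in the controls, and its log2 fold change of −0.17 (SE 0.0553, adjusted p = 0.0122) was the smallest that passed. That call was lost without mutant 1 (adjusted p = 0.145), without control 1 (0.0989), in DESeq2 (0.0513) and with the low-count filter alone (0.0551), and the mean of the 4 subtype effects was −0.091 (adjusted p = 0.184 in limma). With at most 1 marker of another lineage the fall in all ECs was larger (−0.38, adjusted p = 0.00131). In no subtype did *Fli1* pass, although it did in arterial ECs under that stricter gate (−0.43, adjusted p = 0.00556) and without mutant 2 (−0.30, adjusted p = 0.0408).

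The SOXF factors did not move together. *Sox7* was 1.53-fold higher in mutant ECs, at 126 and 133 CPM in the mutants and 93.3 and 85.0 CPM in the controls, with a log2 fold change of 0.61 (SE 0.0826, adjusted p = 4.31e-06). *Sox18* was 1.31-fold lower, at 358 and 347 CPM in the mutants and 496 and 472 CPM in the controls, with −0.39 (SE 0.0544, adjusted p = 7.71e-06). In both genes the 2 mutants lay apart from the 2 controls. *Sox17* overlapped between genotypes, at 210.0 and 191 CPM in the mutants and 196 and 175 CPM in the controls, and narrowly missed the threshold with a log2 fold change of 0.18 (SE 0.0796, adjusted p = 0.0526), which passed without mutant 2 (adjusted p = 0.0385) and without control 1 (0.0239). It also passed with 1000 UMIs and 800 genes as the only filter on barcodes (0.20, adjusted p = 0.035), with 7 endothelial markers (0.0391) and with free RNA subtracted (0.034).

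By subtype, *Sox7* rose most in sinusoidal ECs, where controls have the least of it: it stood at 79.6 and 99.5 CPM in the mutants and 47.3 and 47.1 CPM in the controls, a 2.01-fold difference with a log2 fold change of 1.01 (SE 0.222, adjusted p = 0.000514). The marker makeup of the sinusoidal class moved with this rise. The summed level of its 6 sinusoidal gate markers was 4885 and 4169 CPM in the mutants and 6986 and 6747 CPM in the controls, and that of the 6 arterial markers was 171 and 163 CPM in the mutants and 50.8 and 84.8 CPM in the controls. All 6 sinusoidal markers stayed at 10 CPM or more in every library, and 3 and 2 arterial markers reached 10 CPM in mutants and 1 in each control. Sinusoidal markers were lower in mutants in capillary ECs too, at 508 and 426 CPM in the mutants and 887 and 677 CPM in the controls, and in *Apln*-positive ECs, at 619 and 528 CPM in the mutants and 962 and 1521 CPM in the controls. The part of these markers in the rise of *Sox7* in the 3 subtypes, and of *Klf2* and *Klf4* in capillary ECs, was not tested. In capillary ECs *Sox7* was at 159 and 147 CPM in the mutants and 114 and 95.9 CPM in the controls, a log2 fold change of 0.62 (SE 0.133, adjusted p = 0.000419). In *Apln*-positive ECs it was at 124 and 135 CPM in the mutants and 91.0 and 62.9 CPM in the controls, with 0.82 (SE 0.231, adjusted p = 0.0191), a call lost without mutant 2, control 1 or control 2 (adjusted p = 0.092, 0.0588 and 0.203), in DESeq2 (0.282) and with at least 3 *Apln* UMIs required (0.195). Arterial ECs, at 131 and 131 CPM in the mutants and 113 and 122 CPM in the controls, did not pass (log2 fold change 0.24, SE 0.134, adjusted p = 0.196). The difference of the effect between subtypes was not past the threshold (adjusted p = 0.21). With at most 1 marker of another lineage allowed per EC, *Sox7* was no longer called in sinusoidal (0.66, adjusted p = 0.372), capillary (0.53, adjusted p = 0.0705) or *Apln*-positive ECs (0.012, 0.996).

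*Sox18*, at 411 and 389.5 CPM in the mutants and 607 and 574 CPM in the controls, fell in arterial ECs by a log2 fold change of −0.49 (SE 0.0833, adjusted p = 4.79e-05). It also fell in capillary ECs, from which the mutants gave 381 and 382 CPM and the controls 542 and 505 CPM (log2 fold change −0.38, SE 0.101, adjusted p = 0.00353, and adjusted p = 0.0516 without mutant 1). Sinusoidal ECs had 282 and 293 CPM in the mutants and 386 and 389.7 CPM in the controls. *Apln*-positive ECs had 335 and 331 CPM in the mutants and 387 and 378 CPM in the controls. Both mutants again lay below both controls, but log2 fold changes of −0.35 (SE 0.138, adjusted p = 0.0628) and −0.12 (SE 0.146, adjusted p = 0.629) did not pass. Under the same stricter gate the call of *Sox18* was lost in arterial (−0.28, adjusted p = 0.0529) and capillary ECs (−0.34, adjusted p = 0.116). *Sox17* passed in capillary ECs, at 135 and 188 CPM in the mutants and 118 and 129.6 CPM in the controls (log2 fold change 0.46, SE 0.142, adjusted p = 0.0109), but not without mutant 2 (0.19, adjusted p = 0.452) or control 1 (adjusted p = 0.117), in DESeq2 (0.127) or with *Apln*-positive barcodes left in (0.24, adjusted p = 0.0966). In arterial ECs, its main site, *Sox17* was at 477 and 367 CPM in the mutants and 553 and 477 CPM in the controls, a log2 fold change of −0.21 (SE 0.102, adjusted p = 0.12) that passed without mutant 1 (−0.43, adjusted p = 0.000916) and without control 2 (0.033).

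*Klf2* and *Klf4* both rose in mutant ECs. *Klf2* stood at 1102 and 1046 CPM in the mutants and 776 and 839.8 CPM in the controls, 1.40-fold higher in mutants, with a log2 fold change of 0.48 (SE 0.057, adjusted p = 8.69e-07). *Klf4* was 1.60-fold higher, at 545 and 549 CPM in the mutants and 348 and 370.2 CPM in the controls, with 0.68 (SE 0.055, adjusted p = 6.33e-09). All mutant values lay above all control values.

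Sinusoidal ECs, with the least *Klf2* of the 4 subtypes in controls, showed the largest rise of both genes. In the same class sinusoidal gate markers were lower and arterial markers higher in mutants, as given beside *Sox7*, and *Klf2* and *Klf4* were higher in arterial ECs than in the other 3 subtypes in each of the 4 libraries. The part of this shift in their rise was not tested. *Klf2* was at 765 and 894 CPM in the mutants and 385 and 377 CPM in the controls there, a 2.31-fold difference (log2 fold change 1.20, SE 0.121, adjusted p = 5.75e-12). *Klf4* was at 439 and 610.4 CPM in the mutants and 248 and 205 CPM in the controls, 2.45-fold (log2 fold change 1.29, SE 0.142, adjusted p = 9.25e-11). Both genes also rose in arterial ECs, from an already high level. *Klf2* reached 2225 and 2025 CPM in the mutants and 1602 and 1671 CPM in the controls (log2 fold change 0.45, SE 0.0611, adjusted p = 1.22e-06). *Klf4* reached 1085 and 1039.9 CPM in the mutants and 654 and 704 CPM in the controls (log2 fold change 0.72, SE 0.0702, adjusted p = 4.56e-09). In capillary ECs, *Klf2* was at 936 and 1067 CPM in the mutants and 629 and 769 CPM in the controls (log2 fold change 0.60, SE 0.0991, adjusted p = 1.14e-05). *Klf4* was at 449 and 474 CPM in the mutants and 267 and 328 CPM in the controls there (log2 fold change 0.71, SE 0.112, adjusted p = 4.24e-06). The mutants lay above the controls in each of these 3 subtypes. Without any filter on low counts, the sinusoidal calls did not pass, with log2 fold changes then for *Klf2* (1.10, adjusted p = 0.164), *Klf4* (1.19, adjusted p = 0.216) and *Sox7* (0.90, adjusted p = 0.246) and *Ets1* (−0.43, adjusted p = 0.205).

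In *Apln*-positive ECs neither gene passed. *Klf2* was at 442 and 287 CPM in the mutants and 526 and 455 CPM in the controls, with both mutants below both controls. Its log2 fold change was −0.36 (SE 0.178, adjusted p = 0.193) with a 95% interval of −0.73 to 0.0071. *Klf4* overlapped, at 216 and 200.2 CPM in the mutants and 169 and 248 CPM in the controls, with 0.075 (SE 0.183, adjusted p = 0.832) and an interval of −0.30 to 0.45. The test of the difference between the 4 subtypes passed for *Klf2* (adjusted p = 0.003) and *Klf4* (0.0383), 2 of the 10 factors, where 5.66% of 7920 genes passed. For *Klf2* it was lost without control 1 (adjusted p = 0.0785), and for *Klf4* without mutant 2 (0.312) or control 2 (0.536) and with the low-count filter alone (0.0566). With each library left out in turn, the log2 fold change in *Apln*-positive ECs ranged from −0.67 to −0.047 for *Klf2* and from −0.15 to 0.40 for *Klf4*. With at most 1 marker of another lineage, *Klf2* fell in *Apln*-positive ECs by 1.13 on the log2 scale (adjusted p = 0.0461), where the class held 11 barcodes in each control (102263 and 74454 UMIs) and 60 and 72 in the mutants. The *Apln* gate itself differed between genotypes, since mutant *Apln*-positive ECs held 994 and 1116 CPM of *Apln* and a median of 10702 and 10762 UMIs, and control ones 396 and 465 CPM and 7306 and 7931 UMIs. When *Apln*-positive barcodes were left in the class of their other markers, the log2 fold change in capillary ECs was −0.051 for *Klf2* (adjusted p = 0.659), with the opposite sign, and 0.23 for *Klf4* (0.0659), neither past the threshold. The rise in capillary ECs was thus read only with *Apln*-positive barcodes kept apart.

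Immediate early and stress genes that respond to tissue dissociation moved with *Klf2* and *Klf4*. Of 14 such genes, where 60.9% of all genes were called, 12 were higher and 2 (*Hspa1a* and *Hspa1b*) lower in mutant ECs, with a median log2 fold change of 0.74 (0.0090 over all genes). Examples are *Fos* with 1.13 (adjusted p = 3.70e-12), *Atf3* with 1.61 (adjusted p = 3.50e-11), *Ier3* with 1.59 (adjusted p = 7.32e-13) and *Nr4a1* with 0.94 (adjusted p = 7.24e-06). The numbers higher and lower were 12 and 0 in arterial, 11 and 2 in sinusoidal, 12 and 2 in capillary and 1 and 2 in *Apln*-positive ECs, where 27.8, 20.1, 31.6 and 14% of all genes were called. Their summed level in all ECs was 6543 and 6141 CPM in mutants and 4475 and 4107 CPM in controls, and in *Apln*-positive ECs 4364 and 3169 against 3721 and 4496 CPM. Their part in the rise of *Klf2* and *Klf4* was not tested.

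*Gata2* and *Tal1*, the factors shared with the blood lineage, did not pass in all ECs. *Gata2* was at 80.1 and 68.8 CPM in the mutants and 85.4 and 80.1 CPM in the controls, a log2 fold change of −0.084 (SE 0.0883, adjusted p = 0.425) with a 95% interval of −0.27 to 0.10. *Tal1* overlapped between genotypes at 70.8 and 62.9 CPM in the mutants and 70.8 and 66.1 CPM in the controls, with 0.035 (SE 0.0939, adjusted p = 0.768) and −0.16 to 0.23. *Tal1* rose in arterial ECs only among the 4 subtypes, from 74.0 and 65.0 CPM in controls to 98.5 and 90.6 CPM in mutants (log2 fold change 0.51, SE 0.153, adjusted p = 0.0125), which did not hold without mutant 1 (adjusted p = 0.0901), without control 2 (0.102), in DESeq2 (0.248) or with at most 1 marker of another lineage (0.0953). The difference of its effect between subtypes did not pass (adjusted p = 0.208). For *Gata2* no subtype passed, but in capillary ECs with *Apln*-positive barcodes left in it did (−0.60, adjusted p = 0.00123, against −0.29 without them). Its level in mutant *Apln*-positive ECs was 39.1 and 29.6 CPM. Free RNA, estimated from markers of other lineages and barcodes under 100 UMIs, would account for 0.179 to 2.7% of the level of any of the 10 factors in all ECs. Subtracting it changed no call of a factor in all ECs or the 4 subtypes but that of *Sox17* in all ECs, given above.

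The share of ECs with a UMI was read for *Ets1* and *Sox18*, both of which fell, and for *Klf2*, *Klf4* and *Sox7*, which rose. After thinning every barcode to 2000 UMIs, which left out 20 and 32 mutant and 47 and 58 control ECs, *Ets1* was found in 47.9 and 43.7% of mutant and 67.3 and 64.6% of control ECs. Without thinning the shares were 76.0 and 74.8% against 84.3 and 83.7%. *Sox18* was found in 47.3 and 48.8% of thinned mutant and 54.3 and 51.9% of thinned control ECs (78.0, 78.1, 79.2 and 77.6% without thinning). Thinned shares of *Ets1* and *Sox18* lay lower in both mutants, while the unthinned shares of *Sox18* overlapped between genotypes. Thinned shares of *Klf2* were 62.4 and 60.5% in mutant and 54.6 and 60.3% in control ECs, so mutant 2 and control 2 lay close together. Those of *Klf4* were 47.9 and 45.3% against 36.8 and 41.2%, and those of *Sox7* 18.6 and 21.8% against 13.6 and 13.7%. In osteoblast lineage cells, which should lack it, the thinned share of *Sox18* lay between 0.119 and 0.592%. Median depth before thinning was 6587 and 6268 UMIs in mutant and 5379 and 5029 in control ECs, and 9733 to 14828 in osteoblast lineage cells.

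**Figure D3:**
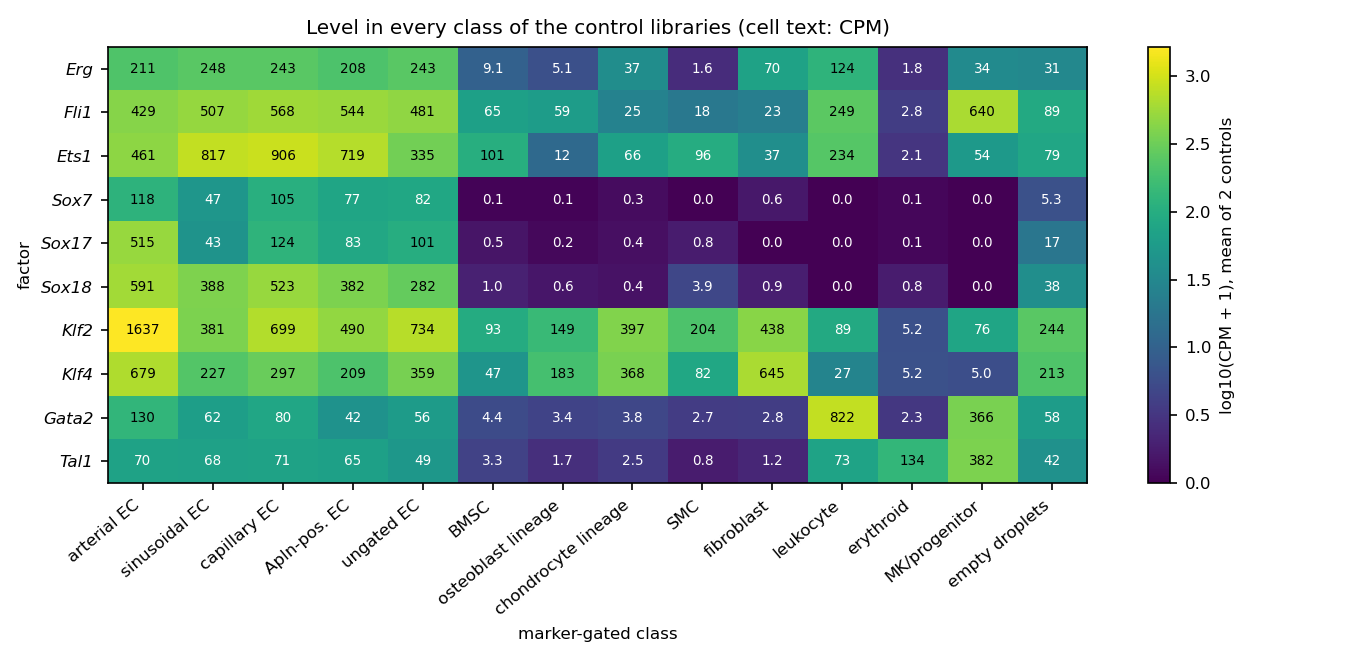
Level of each factor (rows) in marker-gated classes of the control libraries and in barcodes under 100 UMIs (columns), as log10(CPM + 1) in color and mean CPM of 2 libraries as text. The mean of each SOXF factor stays under 4 CPM in every other cell class, while *Klf2* and *Klf4* are found in most classes.

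How far the factors are endothelial in these samples was read from the other classes. *Sox7*, *Sox17* and *Sox18* stood at 0 to 4.63 CPM in every control library of the 5 other stromal classes. *Gata2* and *Tal1* lay at or under 6.46 CPM in the same classes, but *Gata2* reached 839 and 804 CPM in the 108 and 91 barcodes of the leukocyte gate and *Tal1* 425 and 338 CPM in the 37 and 33 barcodes of the megakaryocyte and progenitor gate. *Fli1* stood at 806 and 474 CPM in the megakaryocyte and progenitor gate, of which 1 library lay above both values of all ECs (532 and 499.6 CPM), and at 294 and 205 CPM in leukocytes. *Erg* stood at 142 and 106 CPM in leukocytes, 51.0 and 88.8 CPM in fibroblasts and 38.5 and 35.7 CPM in chondrocyte lineage cells. *Ets1* stood at 234 and 234 CPM in leukocytes, 104 and 98.0 CPM in bone marrow stromal cells and 112 and 80.3 CPM in smooth muscle cells. *Klf2* and *Klf4* were not restricted to ECs, with 590.5 and 699 CPM of *Klf4* in fibroblasts.

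The genotype effect was therefore also tested in cells that the Cre driver does not target. Of the 10 factors, 4 passed the filter in bone marrow stromal cells (BMSCs), osteoblast lineage cells, smooth muscle cells (SMCs) and fibroblasts, and 5 in chondrocyte lineage cells. *Klf2* rose in 4 of these classes and *Klf4* in 3. In BMSCs *Klf2* was at 246 and 188 CPM in the mutants and 94.4 and 91.8 CPM in the controls (log2 fold change 1.30, SE 0.0963, adjusted p = 9.61e-08). *Klf4* was at 189.9 and 139 CPM in the mutants and 49.0 and 44.5 CPM in the controls (log2 fold change 1.90, SE 0.113, adjusted p = 1.24e-08), a 3.73-fold rise. Chondrocyte lineage cells held 1042 and 945 CPM in the mutants and 367 and 426 CPM in the controls of *Klf2* (log2 fold change 1.41, SE 0.0677, adjusted p = 3.00e-10) and a smaller rise of *Klf4* (log2 fold change 0.62, SE 0.045, adjusted p = 2.19e-08). SMCs gave 0.71 (SE 0.0979, adjusted p = 4.09e-06) for *Klf2* and 0.94 (SE 0.126, adjusted p = 2.99e-06) for *Klf4*. Osteoblast lineage cells gave 0.59 (SE 0.078, adjusted p = 0.00124) for *Klf2*, while *Klf4* did not pass there (log2 fold change 0.18, SE 0.0782, adjusted p = 0.155). In BMSCs, chondrocyte lineage cells, SMCs and osteoblast lineage cells both mutants lay above both controls for both genes. In fibroblasts the genotypes overlapped for both genes. *Klf2* was at 419 and 476 CPM in the mutants and 402 and 473 CPM in the controls there. *Klf4* was at 690 and 855 CPM in the mutants and 590 and 699 CPM in the controls there. BMSCs numbered 591 and 714 in mutants and 1869 and 1826 in controls, and chondrocyte lineage cells 1798 and 1884 against 1286 and 1314. SMCs numbered 366 and 420 in mutants and 215 and 222 in controls. The study reports an expansion of hypertrophic chondrocytes and a shift among metaphyseal stromal cells in mutants. It also reports an enrichment of *Myh11*-negative cells in its mutant SMC cluster, which it regards as likely myofibroblasts. The part of class makeup in these rises, also in SMCs with the marker levels given below, was not tested. Counts of members called were 2 higher and 1 lower in BMSCs (52.2% of genes called, 26.5% higher and 25.7% lower) and 2 higher in osteoblast lineage cells (14.3% of genes called, 8.65% higher and 5.66% lower). They were 5 higher in chondrocyte lineage cells (63.6% of genes called, 32% higher and 31.6% lower) and 4 higher in SMCs (44.4% of genes called, 22.3% higher and 22.1% lower). In fibroblasts (2.07% of genes called, 1.25% higher and 0.819% lower) 0 of 4 passed in edgeR and in DESeq2, and 1 of 4 had an unadjusted p under 0.05.

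**Figure D4:**
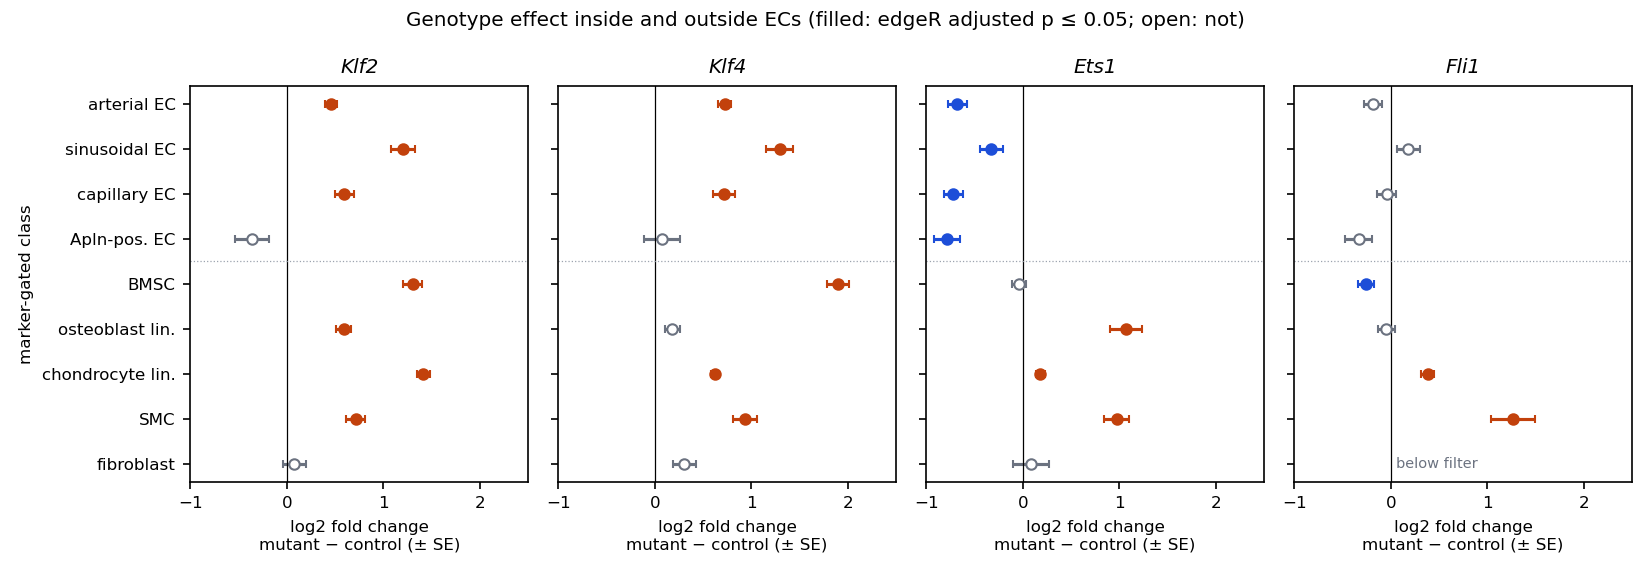
Log2 fold change of mutants over controls (horizontal axis, bars ± SE) of *Klf2*, *Klf4*, *Ets1* and *Fli1* in 4 EC subtypes (above the dotted line) and 5 other classes (below), filled where the adjusted p is 0.05 or less. *Ets1* lies left of 0 in ECs and right of 0 in osteoblast lineage cells and SMCs.

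The dissociation response genes were again higher with them, with a summed level of 5230.4 and 4336 CPM in mutant and 2333 and 2211 CPM in control BMSCs. It was 13110 and 12544 against 9765 and 10097 CPM in chondrocyte lineage cells. Barcodes under 100 UMIs, which show the free RNA, held 723 and 707 CPM in the mutants and 233 and 254 CPM in the controls of *Klf2*. Scaled by endothelial and blood markers, free RNA would account for 5.24 to 36.5% of the *Ets1*, *Klf2* and *Klf4* levels in BMSCs, for 3.3 to 23.5% in osteoblast lineage cells, for 5.87 to 32.8% in SMCs and for 1.81 to 4.63% in chondrocyte lineage cells. For *Klf2* in SMCs these shares were 29.7 and 31.1% in mutants and 9.51 and 9.95% in controls, and for *Klf4* 32.7 and 32.8% against 21.5 and 21.0%. For *Klf2* in osteoblast lineage cells they were 18.1 and 9.03% against 4.49 and 4.86%. *Klf4* in BMSCs went the other way, at 13.6 and 17.7% in mutants and 28.3 and 36.5% in controls. Subtracting free RNA left the number of calls outside ECs at 13 higher and 1 lower, but effect sizes after subtraction were not read there. The part of the dissociation response was not tested.

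*Ets1* was higher in mutants in 3 of the 5 other classes, where ECs had shown a fall. The summed level of the 6 gate markers of SMCs, *Myh11* among them, was 6288 and 6769 CPM in the mutants and 11988 and 12609 CPM in the controls, and that of the 10 endothelial markers there was 158 and 180.4 CPM in the mutants and 110.2 and 109.7 CPM in the controls. In osteoblast lineage cells endothelial markers were at 38.5 and 28.2 CPM in the mutants and 21.9 and 18.8 CPM in the controls. Their part in the results for *Ets1*, *Fli1*, *Klf2* and *Klf4* in these classes was not tested. In SMCs *Ets1* was at 190.0 and 183 CPM in the mutants and 112 and 80.3 CPM in the controls (log2 fold change 0.97, SE 0.127, adjusted p = 2.06e-06). In osteoblast lineage cells it was at 20.4 and 28.2 CPM in the mutants and 11.1 and 12.0 CPM in the controls (log2 fold change 1.07, SE 0.166, adjusted p = 0.00277), and chondrocyte lineage cells gave a smaller rise (log2 fold change 0.18, SE 0.0488, adjusted p = 0.0049). In BMSCs, at 94.4 and 90.8 CPM in the mutants and 104 and 98.0 CPM in the controls, it did not pass (log2 fold change −0.04, SE 0.0687, adjusted p = 0.64). *Fli1* also rose in SMCs, from 15.6 and 20.8 CPM to 36.6 and 49.3 CPM (log2 fold change 1.26, SE 0.228, adjusted p = 0.000109). Of that level, free RNA would account for 19.97 and 18.2% in the mutants and 49.5 and 32.8% in the controls. *Fli1* rose in chondrocyte lineage cells too (log2 fold change 0.39, SE 0.0669, adjusted p = 0.000174), where free RNA would account for 4.97 and 6.27% in the mutants and 12.0 and 14.2% in the controls. It fell in BMSCs (log2 fold change −0.26, SE 0.0834, adjusted p = 0.0185), a call that was absent in DESeq2, with 1000 UMIs and 800 genes as the only filter on barcodes, and without mutant 2 or control 1, each with 0 factors lower. *Erg* was 1.91-fold higher in mutant chondrocyte lineage cells, at 64.9 and 68.4 CPM in the mutants and 38.5 and 35.7 CPM in the controls (log2 fold change 0.94, SE 0.0578, adjusted p = 4.23e-09). The part of the makeup of this class in the rise of *Erg* was not tested. In tests of the difference itself, added after these values were seen, the effect in ECs differed from that in BMSCs for *Ets1*, *Klf2* and *Klf4* (26.1% of genes differed) and from osteoblast lineage cells for *Ets1* and *Klf4* (25.6%). It differed from chondrocyte lineage cells for *Ets1*, *Fli1*, *Erg* and *Klf2* (44%), from SMCs for *Ets1* and *Fli1* (31.6%) and from fibroblasts for *Ets1* (12.7%).

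Genes related to the factors were read in all ECs from lists, and the plot of related gene lists shows every gene tested. Values are log2 fold changes of mutants over controls, and the counts stand against 30.8% of all genes higher and 30.1% lower. All ECs pool subtypes whose shares differed between genotypes, and the part of these shares in the list results was not tested. Of 9 further ETS genes tested, 3 rose and 2 fell, with a median log2 fold change of −0.11: the ternary complex factor *Elk3* fell by 0.79 (adjusted p = 3.66e-10) and *Ets2* by 0.69 (adjusted p = 1.78e-07), and *Elf4* (0.54, adjusted p = 7.84e-05) and *Elf1* (0.50, adjusted p = 4.12e-06) rose. Of 9 KLF and SP genes, 4 rose and 4 fell (median −0.084), led by *Klf6* (0.66, adjusted p = 1.17e-07), *Klf12* (−0.48, adjusted p = 4.70e-05), *Klf9* (0.42, adjusted p = 8.97e-05) and *Klf10* (0.38, adjusted p = 0.000995). Both families thus held genes that rose and genes that fell. *Sox13* fell (−0.58, adjusted p = 6.96e-06), as 1 of 2 other SOX genes tested. Of 7 partners of GATA2 and TAL1, 4 fell and 0 rose (median −0.25). These were *Tcf12* (−0.54, adjusted p = 2.49e-07), *Cbfa2t3* (−0.33, adjusted p = 0.00276), *Tcf4* (−0.27, adjusted p = 0.00077) and *Ldb1* (−0.25, adjusted p = 0.0292). Among 10 other endothelial transcription factors, 2 rose and 5 fell (median −0.19), with the homeobox factor *Meox2* rising most (1.46, adjusted p = 3.77e-11). Falls were found for *Epas1* (−0.48, adjusted p = 3.70e-07), which encodes HIF-2α, *Mef2c* (−0.42, adjusted p = 3.44e-06) and the venous factor *Nr2f2* (−0.31, adjusted p = 0.000594).

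**Figure D5:**
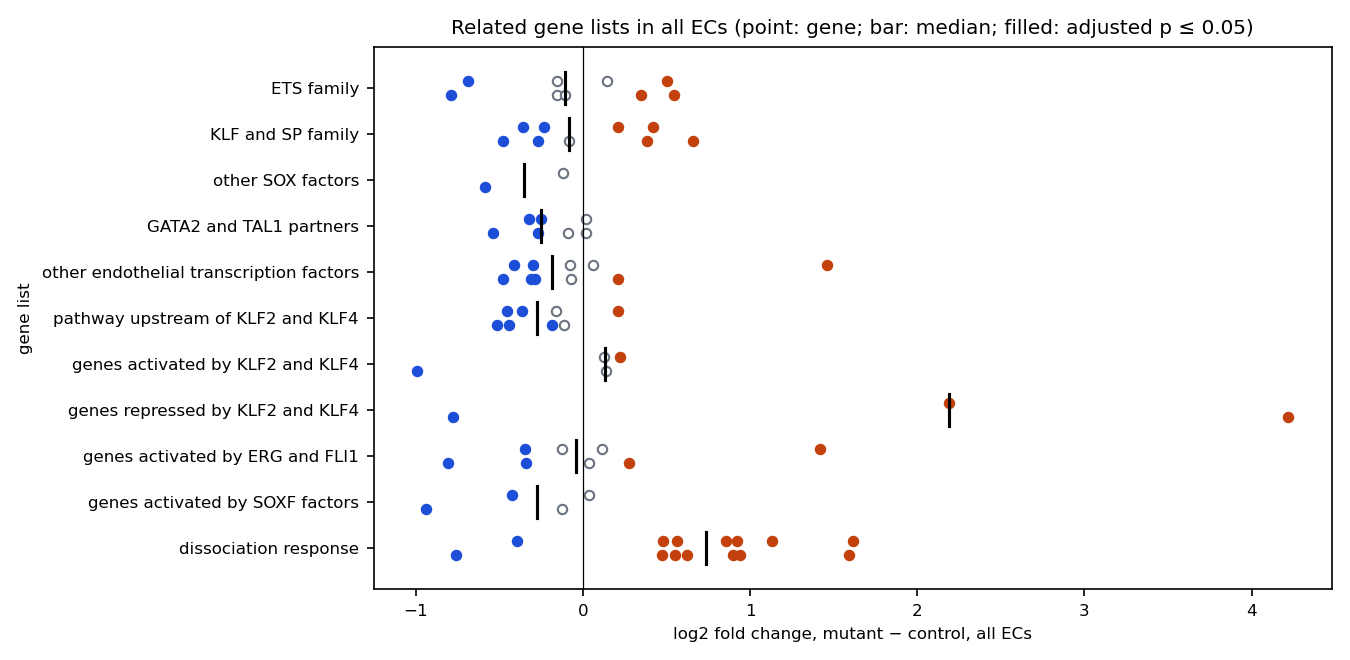
Log2 fold change of mutants over controls in all ECs (horizontal axis) of the genes tested in each list (vertical axis), with 1 point per gene, filled where the adjusted p is 0.05 or less, and a bar at the median. The dissociation response lies mostly right of 0 (12 of 14 genes), and the pathway upstream of KLF2 and KLF4 mostly left of it (5 of 8 called lower).

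Transcripts of the pathway upstream of KLF2 and KLF4 were read next. The list was not split into genes that drive and genes that restrain *Klf2* and *Klf4*, so its count and median give no direction. Of 8 genes tested, 5 fell and 1 rose (median −0.27), where 60.9% of all genes were called and 30.1% fell: *Map2k5*, which encodes MEK5, fell by 0.51 (adjusted p = 0.00013), the junctional receptor *Heg1* by 0.46 (adjusted p = 6.60e-07), *Map3k2* (MEKK2) by 0.45 (adjusted p = 0.000293) and *Krit1* by 0.36 (adjusted p = 0.000967). By subtype, 0 genes of this pathway list were called higher. Called lower were 3 of 8 tested in arterial, 0 of 8 in sinusoidal, 3 of 8 in capillary and 2 of 9 in *Apln*-positive ECs. Of all genes, 13.6, 8.88, 16.1 and 7.33% were called lower there. Of 4 genes that KLF2 and KLF4 are known to activate, *Aqp1* rose (0.22, adjusted p = 0.00122) and *Thbd*, thrombomodulin, fell (−0.99, adjusted p = 2.17e-10), while *Nos3* (0.14, adjusted p = 0.14) and *S1pr1* (0.12, adjusted p = 0.0732) did not pass. Of 3 genes they are known to repress, *Angpt2*, a Tie2 ligand of activated endothelium, rose from 22.3 and 10.5 CPM in controls to 302 and 287 CPM in mutants (4.22, adjusted p = 5.77e-13). *Edn1*, endothelin 1, rose (2.19, adjusted p = 3.70e-12) and *Vcam1* fell (−0.78, adjusted p = 8.21e-09) in all ECs. By subtype, 0 genes of this list of repressed genes were called lower. Called higher were 2 of 2 tested in arterial, 0 of 2 in sinusoidal, 3 of 3 in capillary and 2 of 3 in *Apln*-positive ECs. Of all genes, 14.1, 11.2, 15.5 and 6.71% were called higher there. The fall of *Vcam1* was thus read only with the subtypes pooled. Of 8 genes activated by ERG and FLI1, 2 rose and 3 fell (median −0.045), among them *Vwf* (1.42, adjusted p = 6.84e-11) and *Tek*, the Tie2 receptor (−0.81, adjusted p = 1.27e-09), with *Rhoj* (−0.35, adjusted p = 1.90e-05) and *Tie1* (−0.34, adjusted p = 0.000192). Of 4 genes activated by SOXF factors, *Efnb2* (−0.94, adjusted p = 2.08e-08) and *Notch1* (−0.43, adjusted p = 2.68e-05) fell, and *Dll4* (0.037, adjusted p = 0.741) and *Cldn5* (−0.13, adjusted p = 0.0538) did not pass.

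Over the 16 sums of 4 libraries and 4 subtypes, the genes most like each factor in their log2 level were named by Pearson r among 7920 genes. *Klf2* itself led for *Klf4*, whose closest genes were *Klf2* (0.95), *Mgp* (0.947) and *Luzp1* (0.946). *Klf2* was most like *Nuak1* (0.962), *Luzp1* (0.962) and *St3gal1* (0.96). *Ets1* was most like *Btnl9* (0.976), *Sema6d* (0.958) and *P3h2* (0.958), and *Sox17* most like *Ybx1* (0.968), *S1pr1* (0.966) and *Pdgfd* (0.961). For *Sox7* the leading genes were *Esam* (0.933), *Gch1* (0.925) and *Capg* (0.914), for *Sox18* *Hip1* (0.938), *Dab2ip* (0.936) and *Tbl1x* (0.928) and for *Gata2* *Slc3a2* (0.958), *Timp3* (0.935) and *Ptprb* (0.93). Likeness was lower for *Fli1* (*Trib2* (0.885), *Smagp* (0.884) and *Mapre2* (0.881)), *Tal1* (*Ndel1* (0.852), *Plekhg2* (0.846) and *Ppp1r12c* (0.845)) and *Erg* (*Aph1a* (0.777), *Cbll1* (0.759) and *Ube2j2* (0.758)). These correlations are a description, since sums of a library share its depth and preparation.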

How the data were processed

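The authors trimmed reads with cutadapt 3.5 and aligned and counted them with STARsolo 2.7.10a on GRCm39 (GENCODE M26 with CreERT2 and reporter sequences), and deposited expected counts of UMIs per gene and barcode, with multimapping UMIs shared by expectation maximization over exons and introns. No cell annotation was used. The members and gene lists were chosen with earlier results of these data known, and the numeric gate limits were set with the data at hand. Barcodes needed at least 1000 UMIs and 800 genes, at most 15% mitochondrial and 5% hemoglobin counts and a complexity of at least 0.8, as in the study. Classes were gated on markers that exclude the 10 factors, subtypes took the highest scaled score with at least 2 markers detected, other classes needed at least 3 markers, under 3 endothelial markers and 1 leading lineage, and no doublet caller was run, but ECs with more than 2 markers of another lineage were left out. No EC barcode was shared between libraries, and 1 to 12 of all gated barcodes per pair were. ECs with no subtype numbered 52 and 65 in mutants and 54 and 55 in controls. Libraries with 10 or more cells of a class gave rounded sums, and sums of expected counts were compared with edgeR 4.0.16 (R 4.3.3, quasi-likelihood, TMM, filterByExpr, and a count in 20% of the cells of either genotype), with Benjamini-Hochberg adjustment over the genes of a class. Subtypes were compared in 1 fit of 16 sums with the library as a block. Standard errors came from the fold change and F. The mean of subtype effects used limma 3.58.1. DESeq2 1.42.0 was an alternative. Fractional entries held 0.649% of the *Erg* UMIs in ECs and none of those of the other 9. Precision is set by the 2 libraries per genotype. The count tests were tested on simulated counts. Python 3.11.15, numpy 2.4.6, scipy 1.17.1, pandas 2.3.3 and matplotlib 3.10.9 were used. Named genes are the 10 factors, up to 4 genes per list past the threshold with the largest change (*Nos3*, *S1pr1*, *Dll4*, *Cldn5*, *Hspa1a* and *Hspa1b* were named after their values were seen), and the 3 genes most like each factor.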

Additional observations from a re-analysis of the deposited data

Results flagged for a closer look

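The effect of the genotype differed between the 4 EC subtypes for *Klf2* (adjusted p = 0.0030, edgeR with Benjamini-Hochberg adjustment) and *Klf4* (adjusted p = 0.0383). In *Apln*-positive ECs the log2 fold changes were −0.36 for *Klf2* and 0.075 for *Klf4*, against 0.45 to 1.20 and 0.71 to 1.29 in the other 3 subtypes. With each library left out in turn, the *Apln*-positive values ranged from −0.67 to −0.047 and from −0.15 to 0.40, and with *Apln*-positive barcodes left in, the capillary values were −0.051 and 0.23. The difference between subtypes did not pass for *Klf2* without control 1 (adjusted p = 0.0785, edgeR), or for *Klf4* without mutant 2 (0.312), without control 2 (0.536) or with the low-count filter alone (0.0566).

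Effects in all ECs were then set against each other class in 1 edgeR fit per class of 8 sums with the library as a block. These tests were added after the effects outside ECs were seen, and 26.1, 25.6, 44, 31.6 and 12.7% of genes passed them for BMSCs, osteoblast lineage cells, chondrocyte lineage cells, SMCs and fibroblasts. For *Ets1* the log2 fold change in ECs minus that in the other class was −0.78 (SE 0.082, adjusted p = 2.74e-05) for BMSCs, −1.88 (SE 0.191, adjusted p = 0.000213) for osteoblast lineage cells, −1.02 (SE 0.0594, adjusted p = 4.41e-06) for chondrocyte lineage cells, −1.82 (SE 0.113, adjusted p = 2.00e-08) for SMCs and −0.98 (SE 0.204, adjusted p = 0.00224) for fibroblasts. *Fli1* gave −0.57 (SE 0.0612, adjusted p = 0.000131) against chondrocyte lineage cells and −1.43 (SE 0.191, adjusted p = 3.71e-05) against SMCs, and *Erg* −0.94 (SE 0.0656, adjusted p = 1.11e-05) against chondrocyte lineage cells. *Klf2* rose less in ECs than in BMSCs, with a difference of −0.79 (SE 0.112, adjusted p = 0.000247), and less than in chondrocyte lineage cells, with −0.94 (SE 0.0748, adjusted p = 2.26e-05). For *Klf4* the difference was −1.19 (SE 0.13, adjusted p = 3.35e-05) against BMSCs and 0.52 (SE 0.0914, adjusted p = 0.00382) against osteoblast lineage cells.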

How the results depend on the processing

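Of 760 recomputed effects of single factors, 1 called effect changed sign: *Klf2* in capillary ECs, −0.051 (adjusted p = 0.659, edgeR) with *Apln*-positive barcodes left in. In 35 a call was lost and in 14 one was gained. The numbers of factors called higher and lower stayed within 1.5 times for all ECs and arterial ECs. For sinusoidal ECs, with 3 higher and 1 lower, the number lower was 0 in DESeq2, 0 with the low-count filter alone, 0 with at most 1 marker of another lineage, 2 with the replicate block and 2 with 7 endothelial markers, and without any filter 0 were higher and 0 lower. For capillary ECs the number lower went from 2 to 1 with at most 1 marker of another lineage, and the number higher from 4 to 1 with *Apln*-positive barcodes left in. In *Apln*-positive ECs the number higher went from 1 to 0 in DESeq2, to 0 with at most 1 marker of another lineage and to 0 with at least 3 *Apln* UMIs required, and the number lower from 1 to 2 with at most 1 marker of another lineage. Outside ECs the number lower went from 1 to 0 in DESeq2 and to 0 with 1000 UMIs and 800 genes as the only filter, to 2 without a filter and to 3 with the low-count filter alone. Factors whose effect differed between subtypes went from 2 to 4 without a filter and to 1 with the low-count filter alone. With each library left out in turn, the number lower ranged from 0 to 1 in sinusoidal and from 1 to 2 in capillary ECs, the number higher from 0 to 1 in *Apln*-positive ECs, the number lower outside ECs from 0 to 1, and the number with a different effect between subtypes from 1 to 3. A lone library left in an arm is assumed to vary like the other group. The cause of these changes was not tested.

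Neither the labels nor the methods say whether the replicate numbers pair the samples. The correlation of same-numbered deviations was 0.079 over 5657 genes, which cannot settle it with 2 libraries per genotype. With the replicate block 3414 genes were called in all ECs in place of 3444. The block added *Sox17* in all ECs (adjusted p = 0.0441, edgeR) and *Sox18* in sinusoidal ECs (0.0485), and changed no other call of a factor in ECs. Few barcodes were summed in control *Apln*-positive ECs (24 and 29) and in mutant sinusoidal ECs (64 and 68).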
